A study of Macaca mulatta with 24 samples.

Results

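The genes described here are the immediate-early genes FOS, FOSB, JUN, JUNB, JUND, EGR1, IER2 and DUSP1, together with ZFP36 and MYC, in the blood of irradiated rhesus macaques. Every probe that the scanner output names for one of these 10 genes was taken, which gave 13 of 43603 probes and 9 of 14822 named genes. JUND had no probe. The single EGR1 probe was well above background on 0 of 24 arrays, with log2 signals from 2.13 to 4.06, so EGR1 was not tested. The other 8 genes, in 12 probes, passed the filter on low signal, and 10 of these probes were well above background on all 24 arrays.

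Immediate-early genes are transcribed within minutes of a stimulus, without new protein synthesis, when MAP kinases activate transcription factors such as SRF and ELK1. FOS, FOSB, JUN, JUNB and JUND encode the basic leucine zipper proteins that pair into the transcription factor AP-1, EGR1 encodes a zinc finger transcription factor, DUSP1 encodes a phosphatase that switches MAP kinases off, and IER2 encodes a nuclear protein of the same early wave. ZFP36 (tristetraprolin) binds AU-rich elements in messenger RNAs of cytokines such as TNF and promotes their decay, and MYC encodes a transcription factor of cell growth and ribosome production. In blood, granulocytes carry abundant FOS and ZFP36 transcripts, and lymphocytes are among the cells that express MYC.

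The study followed adult rhesus macaques (Macaca mulatta, Chinese origin) through 4 Gy of total body irradiation. Whole blood was drawn before irradiation (7 arrays) and at day 3 (4 arrays), day 5 (6 arrays) and day 7 (7 arrays) afterwards, with no other agent or allele in any group. The labels name X-rays and call the first draw day 0, whereas the study's methods name a cobalt gamma source and place that draw some days before exposure. The replicate numbers, which keep their sex on every day and whose arrays correlated across days, were taken as animals, 4 males (1 to 4) and 3 females (5 to 7). Sham-irradiated animals of the study were not analysed here, so irradiation and repeated sampling cannot be told apart. Blood was collected into an RNA stabilizer and depleted of globin transcripts, and each sample was hybridized to one-colour arrays, which the labels and probe annotation give as a rhesus design and the methods as a human one. In such bulk blood, fewer cells of a type and less RNA per cell cannot be told apart.

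The arrays were scanned in 2 sessions, and most of the contrast at days 3 and 5 runs between them. Session 1 held 6 pre-irradiation and 6 day 7 arrays, and session 2 held every day 3 and day 5 array with the pre-irradiation and day 7 arrays of animal 5. Between 48.3 and 61.2% of the probes were well above background on an array, and precision is set by how many arrays each group holds. The markers of whole blood were present before irradiation, and they moved afterwards. At an adjusted p under 0.005, all 9 tested B cell markers were called lower on each day and 9, 10 and 8 of 10 erythroid markers at days 3, 5 and 7, while 9, 2 and 0 of 9 platelet markers were called higher (median log2 changes of 2.95, 1.07 and 0.15). The shares of all named genes were 7.55, 9.1 and 7.19% called lower and 5.89, 6.23 and 2.69% called higher.

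The probes within the reading frame show which part of each messenger RNA was read. They are printed as in the scanner output, 5′ to 3′ on the transcript, with coordinates of the array's genome build rheMac2. FOS and FOSB are shown because their probes lie in the basic leucine zipper that defines AP-1 proteins. JUN is shown because its probe holds the stop codon, and ZFP36 because its probe holds an ATG taken as the start codon.
FOS: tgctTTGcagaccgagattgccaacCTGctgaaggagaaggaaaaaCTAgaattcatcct
FOSB: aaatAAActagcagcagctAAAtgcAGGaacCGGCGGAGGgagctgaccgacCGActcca
JUN: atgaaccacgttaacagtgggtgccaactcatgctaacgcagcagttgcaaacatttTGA
ZFP36: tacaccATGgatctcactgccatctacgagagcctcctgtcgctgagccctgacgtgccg
The capitals mark 3 leucine codons spaced 7 codons apart in FOS (chr7:138396508-138396567, plus strand), 7 codons for lysine or arginine in FOSB (chr19:51910730-51910789, plus strand), the stop codon of JUN (chr1:61629639-61629698, minus strand) and an ATG codon of ZFP36. That ATG was taken as the start codon without a protein annotation at hand. The ZFP36 probe (chr19:45750671-45751539, plus strand) covers 60 bases of transcript over 869 bases of genome, so it joins exons across an intron. FOS, FOSB and ZFP36 each had a further, brighter probe nearer the 3′ end of the transcript, and both MYC probes lay 1 base apart.

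MYC was lower after irradiation in every animal on every day measured. Its normalized log2 signal before irradiation ran from 11.22 to 13.47 with a median of 12.16, and at day 3 it was 9.73, 9.25, 9.89 and 9.82 in animals 1, 2, 4 and 7. All 4 day 3 arrays lay below all 7 pre-irradiation arrays. The day 5 signals spanned 9.41 to 11.56 (median 10.06), and 5 of 6 were under every pre-irradiation value. The day 7 signals spanned 10.29 to 11.78 (median 10.75), and 6 of 7 were under every such value. Animal 3, with the highest signal before irradiation, was the one above that limit at day 5, and animal 4 at day 7.

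The log2 change of MYC against the pre-irradiation arrays was -2.56 (SE 0.37) at day 3, a 5.88-fold fall, with an adjusted p of 0.00061 in limma. It was -1.96 (SE 0.41) at day 5, a 3.89-fold fall, with a limma adjusted p of 0.00224. A gene was called when the Benjamini-Hochberg adjusted p over all probes tested was under 0.005, so MYC was called on both days, and at day 7 its change of -1.39 (SE 0.33, limma adjusted p = 0.00603) missed the threshold. Against the first sample of the same animal, the log2 change lay between -3.28 and -1.49 at day 3, between -2.88 and -1.78 at day 5 and between -2.26 and -0.68 at day 7. A fit with animals as a replicate block gave -2.39 at day 3 (limma adjusted p = 0.00678, no longer called) and -1.39 at day 7 (limma adjusted p = 0.00188, called). The second probe gave -2.60, -1.90 and -1.27 and the same calls.

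The MYC calls, though not the direction, depended on single animals and on the processing. Of 21 alternatives, 7 lost the call at day 3 and 9 at day 5, with changes of -2.74 to -1.87 and -2.04 to -1.32. Among them were normexp background correction on both days and, at day 5, normexp on the array's median background. The slide block also lost both calls, but it could not separate day from slide. Without 1 animal the log2 change ran from -2.74 to -2.35 at day 3 and from -2.04 to -1.78 at day 5. At day 3 the call was lost without animal 2 (limma adjusted p = 0.00506) or animal 4 (limma adjusted p = 0.00514), and at day 5 without animal 2, 4, 6 or 7 (limma adjusted p = 0.0135, 0.00634, 0.00798 and 0.00795). Session 2 held the pre-irradiation array of animal 5 as its only unirradiated array, so a call within it was hardly within reach and its loss says nothing about stability. Within that session, MYC changed by -2.05 at day 3 (limma adjusted p = 0.0883) and -1.45 at day 5 (limma adjusted p = 0.343), and the fit with session as a block gave the same values with adjusted p of 0.115 and 0.317. At day 7, where both arrays of each animal lay on 1 slide, the slide block left the change at -1.39 (limma adjusted p = 0.00774), and session 1 alone gave -1.45 (limma adjusted p = 0.0134). The pair of animal 5, in session 2, went from 11.72 to 10.75.

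MYC was less far below its pre-irradiation level at day 7 than at day 3, a difference that was not called. All 7 day 7 arrays lay above all 4 day 3 arrays, and the difference was 1.17 (SE 0.28) with a limma adjusted p of 0.0177. Every day 3 and day 5 array was scanned in session 2, and the day 7 arrays, except that of animal 5 (10.75), in session 1. Day and session therefore mostly run together here. Day 5 lay between days 3 and 7, at 0.60 above day 3 (limma adjusted p = 0.653) and 0.57 below day 7 (limma adjusted p = 0.374), and neither difference was called.

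**Figure D1:**
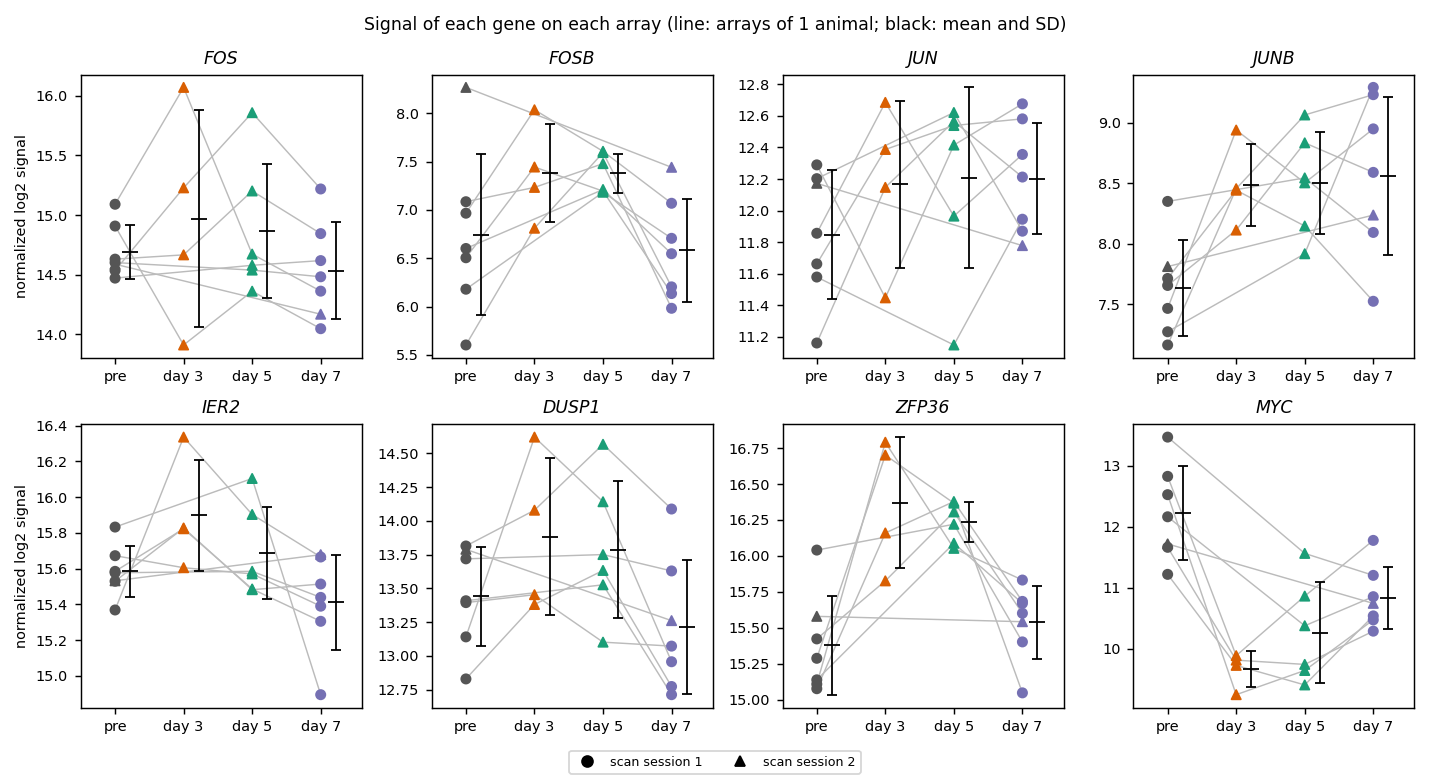
Normalized log2 signal (vertical axes) of the brightest probe of each tested gene before irradiation and at days 3, 5 and 7, with 1 point per array, shape by scan session, grey lines joining the arrays of an animal and black bars for mean and SD. MYC falls from 11.22 to 13.47 before irradiation to 9.25 to 9.89 at day 3, and ZFP36 at day 5 lies between 16.05 and 16.38, above all 7 pre-irradiation arrays.

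ZFP36 was higher at days 3 and 5 and back in the range of the first samples at day 7. Its brightest probe read 15.08 to 16.04 before irradiation (median 15.29) and 16.79, 16.16, 16.70 and 15.83 at day 3 in animals 1, 2, 4 and 7. Of these, 3 of 4 lay above all pre-irradiation arrays, and animal 7 lay within their range. The day 5 signals spanned 16.05 to 16.38 (median 16.26, SD 0.14), and all 6 arrays lay above all 7 pre-irradiation arrays. The day 7 signals spanned 15.05 to 15.83 (median 15.60), with 0 of 7 arrays above that range and 1 below it.

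The log2 change of ZFP36 was 0.86 (SE 0.17) at day 5, a 1.81-fold rise, with a limma adjusted p of 0.00141, and was called. At day 3 it was larger in size, 0.99 (SE 0.24), and not called (limma adjusted p = 0.00828). It passed the threshold in 4 alternatives, namely quantile normalization (1.12, limma adjusted p = 0.00307), all groups in 1 fit (limma adjusted p = 0.000675), without animal 6 (1.10, limma adjusted p = 0.00359) and normexp on the array's median background (1.10, limma adjusted p = 0.00374), the last chosen after seeing the data. At day 7 it was 0.16 (SE 0.18, limma adjusted p = 0.53), and with quantile normalization 0.74 (limma adjusted p = 0.0153). The dimmer ZFP36 probe gave 1.09, 0.79 and -0.26 on the 3 days, called at day 5 (limma adjusted p = 0.00304), so the probes differed in sign at day 7. Each animal rose against its own first sample at day 3 (4 of 4, by 0.40 to 1.68) and at day 5 (6 of 6, by 0.18 to 1.30), and 4 of 7 rose at day 7.

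Between days, all 7 day 7 arrays of ZFP36 lay below all 6 day 5 arrays, a difference of -0.70 (SE 0.15, limma adjusted p = 0.0328) that was not called, and day 7 was 0.83 below day 3 (SE 0.23, limma adjusted p = 0.0313). Both contrasts run mostly between scan sessions. The day 7 array of animal 5, in session 2 like those of days 3 and 5, read 15.54. The day 5 call was lost without animal 1, 2, 3, 4 or 7 (limma adjusted p = 0.00601, 0.00897, 0.00566, 0.00757 and 0.0072). Within scan session 2 the change was 0.79 at day 3 (limma adjusted p = 0.45) and 0.66 at day 5 (limma adjusted p = 0.248), and with session as a block 0.79 (limma adjusted p = 0.327) and 0.66 (limma adjusted p = 0.259). Normexp background correction gave 0.37 at day 5 (limma adjusted p = 0.61).

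Markers of blood cell types moved beside both genes. The mean log2 level of the B cell markers was 10.61 to 10.94 on the pre-irradiation arrays and 6.55 to 7.77, 6.24 to 7.36 and 6.66 to 7.51 on the 3 days, so no array after irradiation reached the range before it. Among T cell markers, 3, 1 and 0 of 11 were called lower on the 3 days, their median log2 changes were -0.79, -0.40 and -0.02, and their mean level was 12.78 to 13.43 on the first arrays, then 11.76 to 12.38, 12.34 to 12.77 and 12.67 to 13.28. Of 7 NK cell markers limma called 0 on any day. Beside these counts, 7.55, 9.1 and 7.19% of all named genes were called lower and 5.89, 6.23 and 2.69% higher. The T cell share at days 5 and 7 was thus no larger than that of all named genes. The gene most like MYC over the 24 arrays was BTLA, an inhibitory receptor of B and T lymphocytes (Pearson r 0.93), followed by ATP6V0E2 and GPN1 (r 0.91 for both). That likeness includes the shift between groups. After the group means were removed, MYC had r 0.20 with the B cell markers, 0.29 with the T cell markers and -0.47 with the neutrophil markers over 24 arrays. The part of cell composition in the MYC result was not tested.

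The neutrophil markers had mean levels of 12.33 to 13.78 on the first arrays, then 13.34 to 14.61, 13.41 to 14.49 and 13.11 to 14.31, and 2, 2 and 1 of 9 were called higher. For these and the monocyte markers below, the share of all named genes called higher was 5.89, 6.23 and 2.69%. The gene most like ZFP36 was CSF3R, the receptor for granulocyte colony-stimulating factor and one of these markers (r 0.93), followed by VSIR (r 0.93) and ATG7 (r 0.92). CSF3R rose by 1.72 at day 3 and 1.82 at day 5 on the log2 scale. Monocyte markers were called higher in 3, 3 and 1 of 9, with median log2 changes of 0.97, 0.81 and 0.87 and mean levels of 11.46 to 12.10 before irradiation and 12.62 to 13.07, 12.07 to 12.78 and 11.50 to 12.81 afterwards. After the group means were removed, ZFP36 followed the neutrophil markers with r 0.72 and the monocyte markers with r 0.49 over 24 arrays, which share animals and are given as a description. Their part in the ZFP36 result was not tested.

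**Figure D2:**
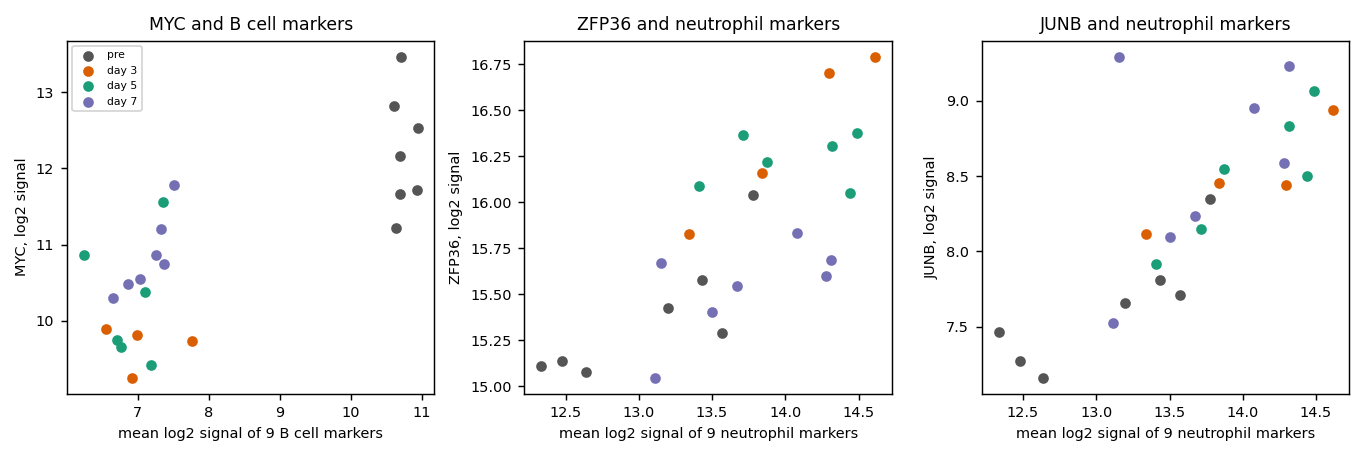
Normalized log2 signal of MYC, ZFP36 and JUNB (vertical axes) against the mean log2 signal of 9 B cell or 9 neutrophil markers (horizontal axes), with 1 point per array and colour by group. The B cell markers separate the pre-irradiation arrays (10.61 to 10.94) from all later ones (at most 7.77), while the neutrophil markers overlap between groups.

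JUNB had a shift of similar size on all days and was not called on any. Its log2 signal ran from 7.16 to 8.35 before irradiation (median 7.65) and was 8.94, 8.45, 8.44 and 8.11 at day 3 in animals 1, 2, 4 and 7. The day 5 signals spanned 7.92 to 9.06 (median 8.52) and those of day 7 spanned 7.52 to 9.29 (median 8.59). The groups overlapped, with 3 of 4, 4 of 6 and 4 of 7 arrays above all pre-irradiation arrays.

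The log2 changes of JUNB were 0.86 (SE 0.24), 0.87 (SE 0.22) and 0.93 (SE 0.28) on days 3, 5 and 7, with limma adjusted p of 0.0156, 0.00833 and 0.0214. Against its own first sample, JUNB was higher in 4 of 4, 6 of 6 and 5 of 7 animals. Without animal 6, which had the highest signal before irradiation, the day 3 change was 0.97 (limma adjusted p = 0.00476) and passed the threshold. Within scan session 2 the changes were 0.68 at day 3 and 0.69 at day 5 (limma adjusted p = 0.453 and 0.445). JUNB followed the neutrophil markers within groups with r 0.67, and ZSWIM8 was the gene most like it (r 0.93), then GPBAR1 (r 0.92) and ANKRD13D (r 0.91).

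FOS, the founding AP-1 subunit, varied between animals more than between days. The brightest probe read 14.47 to 15.09 before irradiation (median 14.60), and 13.91, 15.23, 16.07 and 14.67 at day 3 in animals 1, 2, 4 and 7. The day 5 signals spanned 14.36 to 15.86 (median 14.63) and those of day 7 spanned 14.05 to 15.22 (median 14.48). Animal 1 was the lowest and animal 2 the highest array of the group at both day 5 and day 7. The changes were 0.28 (SE 0.32), 0.18 (SE 0.23) and -0.15 (SE 0.19), none called (limma adjusted p from 0.523 to 0.571). The day 3 change was 0.67 without animal 1 and -0.02 without animal 4.

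The FOS probe in the leucine zipper, 3.69 log2 units dimmer, gave larger values of 0.80, 0.70 and 0.06, with limma adjusted p of 0.0924, 0.029 and 0.848. At day 5, 4 of 6 arrays of this probe lay above all pre-irradiation arrays, against 2 of 6 for the brighter probe. Over 24 arrays both probes correlated with r 0.89.

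FOSB had probes that did not follow each other. The brighter one, well above background on 22 of 24 arrays, read 5.60 to 8.27 before irradiation (median 6.60), and 7.44, 6.81, 8.04 and 7.23 at day 3. Signals of day 5 spanned 7.18 to 7.61 (median 7.34) and those of day 7 spanned 5.98 to 7.44 (median 6.55). The value of 8.27 was that of animal 5, whose array was scanned in session 2, and its day 7 array was likewise above all other day 7 arrays. The change was 0.64 (SE 0.42) at day 3 and 0.63 (SE 0.33) at day 5 (limma adjusted p = 0.254 and 0.148), and without animal 5 it was 0.89 on both days (limma adjusted p = 0.048 and 0.0103). Against the first sample of the same animal, FOSB was higher in 4 of 4 at day 3 (by 0.15 to 1.21) and 6 of 6 at day 5 (by 0.39 to 1.99), and with the replicate block the changes were 0.84 and 0.89 (limma adjusted p = 0.0417 and 0.0138), not called. Within scan session 2, where animal 5 is the only unirradiated array, the change had the opposite sign, -0.89 on both days. At day 7 it was -0.16 (SE 0.35, limma adjusted p = 0.766), and against day 5 directly it was -0.79 (SE 0.23, limma adjusted p = 0.0763), with 6 of 7 day 7 arrays below all day 5 arrays and animal 5 as the exception. The probe in the basic region was well above background on 9 of 24 arrays, and its correlation with the brighter one was -0.20.

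**Figure D3:**
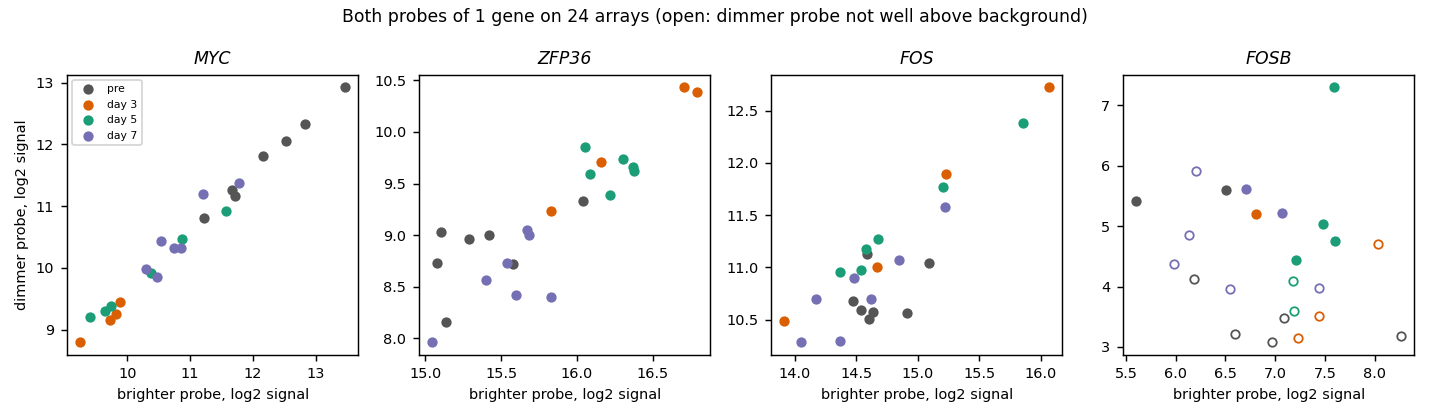
Log2 signal of the dimmer probe (vertical axes) against the brighter probe (horizontal axes) of MYC, ZFP36, FOS and FOSB on 24 arrays, with colour by group and open points where the dimmer probe was not well above background. The MYC probes fall on a line (r 0.99), ZFP36 and FOS follow with r 0.87 and 0.89, and the FOSB probes do not (r -0.20).

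JUN, the main partner of FOS in AP-1, had overlapping groups. Its signal ran from 11.16 to 12.29 before irradiation (median 11.86), and was 12.39, 12.15, 12.69 and 11.45 at day 3. Signals of day 5 spanned 11.15 to 12.62 (median 12.48) and those of day 7 spanned 11.78 to 12.68 (median 12.21). The changes of 0.32 (SE 0.27), 0.36 (SE 0.26) and 0.36 (SE 0.21) were not called (limma adjusted p = 0.376, 0.299 and 0.22). At day 5 animal 3 was below all pre-irradiation arrays while 4 of 6 arrays were above them.

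DUSP1, the MAP kinase phosphatase, read 12.83 to 13.81 before irradiation (median 13.41), and 13.45, 13.38, 14.62 and 14.08 at day 3. Signals of day 5 spanned 13.10 to 14.57 (median 13.69) and those of day 7 spanned 12.71 to 14.09 (median 13.07), so all groups overlapped. Its changes were 0.44 (SE 0.27), 0.34 (SE 0.24) and -0.23 (SE 0.23), none called (limma adjusted p = 0.221, 0.277 and 0.492). In 6 of 7 animals the day 7 value was below the first sample, after values above it in 4 of 4 at day 3 and 5 of 6 at day 5.

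IER2 had the smallest spread within groups of the 8 genes. It read 15.37 to 15.83 before irradiation (median 15.58), and 16.34, 15.61, 15.83 and 15.82 at day 3. Signals of day 5 spanned 15.48 to 16.10 (median 15.58) and those of day 7 spanned 14.90 to 15.68 (median 15.44), so all groups overlapped. The changes were 0.31 (SE 0.16), 0.10 (SE 0.14) and -0.17 (SE 0.14), none called (limma adjusted p = 0.156, 0.599 and 0.398), and with quantile normalization the day 7 change was 0.44.

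**Figure D4:**
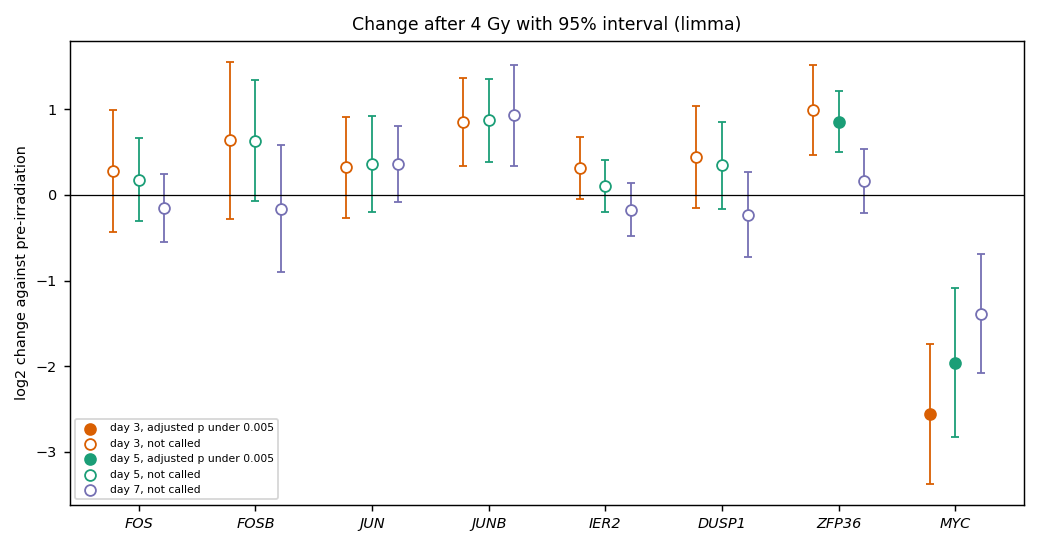
Log2 change against the 7 pre-irradiation arrays (vertical axis) of the brightest probe of each gene at days 3, 5 and 7, with 95% intervals from limma and filled points for an adjusted p under 0.005. MYC at day 3 (-2.56) and day 5 (-1.96) and ZFP36 at day 5 (0.86) are filled, and the intervals of JUNB lie above 0 on all 3 days without a call.

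Counted together, 1 of the 8 genes tested was called at day 3, beside 13.4% of all named genes in their brightest probe, and 2 of 8 at day 5, beside 15.3%. At day 7 limma called 0 of 8, beside 9.88%, while 2 of 8 (MYC and JUNB) had an unadjusted p under 0.05, as had 38.1% of all named genes. The median log2 change of the 8 genes was 0.38, 0.35 and -0.16 on the 3 days, and that of all named genes was -0.01 on each day. Between days limma called 0 of 8 for day 5 against day 3 (background 0.0372%), 0 of 8 for day 7 against day 3 (1.58%) and 0 of 8 for day 7 against day 5 (0.0093%), and 0, 4 and 2 of 8 had an unadjusted p under 0.05, as had 11.1, 34.2 and 21.2% of all named genes. With all groups in 1 fit, ZFP36 was called lower at day 7 than at day 3. The days share their pre-irradiation arrays, so their changes are not independent of each other.

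The male and female animals could be compared at day 7, where each sex had all its animals. For the interaction of sex with day limma called 0 of the 12 probes of these genes and 0 of all 27134 probes with a value. JUN alone of the 12 had an unadjusted p under 0.05 (unadjusted p = 0.0408, limma adjusted p = 0.557), with a change of 0.71 in males and -0.11 in females.

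The spread between animals of 1 day differed by gene. The within-group SD was 0.24 for IER2 and 0.30 for ZFP36, at the 6.84th and 18.9th percentile of all probes tested, and 0.66 for MYC at the 74.0th. JUN, DUSP1, JUNB, FOS and FOSB lay between, from the 50.7th to the 66.9th percentile. After the group means were removed, JUNB and ZFP36 varied together over the 24 arrays (r 0.75), and JUN followed ZFP36 (r 0.54) and JUNB (r 0.50). MYC ran against JUN (r -0.51) and JUNB (r -0.48), and FOS against IER2 (r -0.53). FOS did not move with its AP-1 relatives FOSB (r 0.07) and JUNB (r 0.18).

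**Figure D5:**
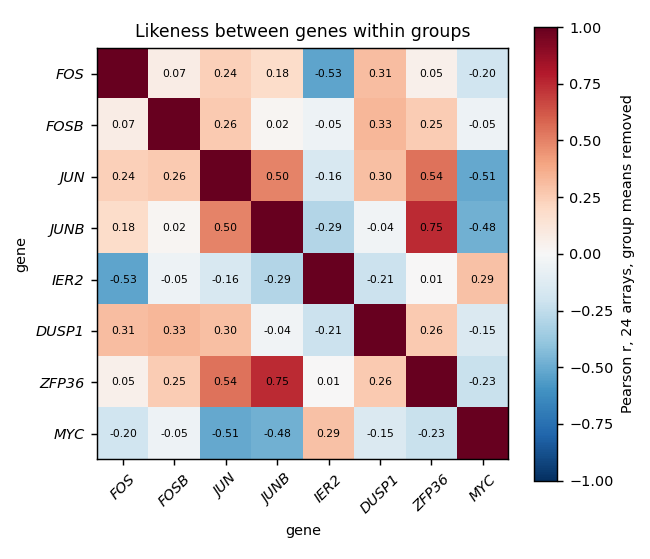
Pearson r between the brightest probes of the 8 tested genes over 24 arrays after the group means were removed, with both axes listing the genes and colour running from -1 to 1. JUNB and ZFP36 share the strongest positive value (0.75), and FOS with IER2 the strongest negative one (-0.53).

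The genes most like the remaining members over all 24 arrays were HDC, ABI1 and TSC22D3 for DUSP1 (r 0.76, 0.76 and 0.74), ZNF609, TSC1 and SPACA9 for FOS (r 0.69, 0.67 and 0.65) and MSL2, KDM5A and C20H16orf54 for FOSB (r 0.89, 0.76 and 0.76). For IER2 they were ZNF688, TMEM218 and COMMD4 (r 0.87, 0.86 and 0.86), and for JUN they included FAM160B1 and SLC25A37 (r 0.85 and 0.83). Arrays of 1 animal are not independent, so these are descriptions.

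Of 13 other transcription factors of the immediate-early wave, 6, 5 and 1 were called higher at days 3, 5 and 7 and 0 lower, with median changes of 0.98, 0.74 and 0.17. The counts include FOSL1 on each day, alone at day 7. It passed the filter on low signal only through the irradiated groups, where it was higher, so its calls add no support. Of all named genes 5.89, 6.23 and 2.69% were called higher on these days. On the same arrays the median changes were 2.95, 1.07 and 0.15 for the platelet markers, 0.97, 0.81 and 0.87 for the monocyte markers and 0.93, 1.06 and 0.57 for the neutrophil markers, and their part in these changes was not tested. ATF3, a stress-induced partner of AP-1 proteins, rose by 2.53 (SE 0.34) at day 3 and 2.11 at day 5 on the log2 scale. KLF4, a zinc finger factor of myeloid cells, rose by 2.32 and 1.60. FOSL1, a FOS relative, was not well above background on any of the 7 pre-irradiation arrays, and was at least 3.67-fold higher at day 3 (4 of 4 arrays measured), at least 3.14-fold at day 5 (3 of 6) and at least 2.76-fold at day 7 (5 of 7), where the bound uses the lowest signal well above background on each array.

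Among 18 other immediate-early genes of signalling and stress, 3, 3 and 1 were called higher and 2, 2 and 0 lower, beside 5.89, 6.23 and 2.69% of all named genes higher and 7.55, 9.1 and 7.19% lower. The higher counts include IER3 on each day, alone at day 7, though it passed the filter on low signal only through the irradiated groups. IER3, an anti-apoptotic protein, was dim before irradiation and at least 3.31-fold higher at day 3, 2.91-fold at day 5 and 2.96-fold at day 7, with 4 of 4, 3 of 6 and 4 of 7 arrays measured. IER5 rose by 1.92 and 1.65 on the log2 scale at days 3 and 5. DUSP2, a phosphatase of lymphocytes, was called lower at days 3 (-1.22) and 5 (-1.03), but it was well above background on 6 of 7 pre-irradiation arrays and 1 of 4 day 3 arrays, so the day 3 value is set by dim signals. GADD45A, a growth arrest gene, fell by 1.84 at day 5.

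The 10 AP-1 partners and related factors tested had median log2 changes of 0.06, 0.14 and -0.03 on the 3 days. In the MAP kinase and SRF pathway 1, 2 and 0 of 21 genes were called higher and 0, 2 and 2 lower, shares near those of all named genes (5.89, 6.23 and 2.69% higher, and 7.55, 9.1 and 7.19% lower). The kinase MAPKAPK3 was higher at days 3 (1.13) and 5 (0.90), while ELK1, a partner of SRF, was lower at days 5 and 7 (-1.19 and -1.35), as was the kinase RPS6KA1 (-1.33 and -1.78).

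ZFP36 acts with deadenylation and decapping factors, and of 12 such genes and family members 0 were called higher and 1, 0 and 0 lower, namely CNOT7, a deadenylase subunit, at day 3 (-0.77), beside 5.89, 6.23 and 2.69% of all named genes called higher and 7.55, 9.1 and 7.19% lower. Of 14 messenger RNAs known as ZFP36 targets, 3, 2 and 0 were called higher and 1, 0 and 1 lower, with median changes of 0.67, 0.88 and 0.76, beside the same shares of all named genes. The neutrophil and monocyte markers given above were higher in the median on the same arrays, and their part was not tested. IL1B rose by 2.21 and 1.97 at days 3 and 5, the chemokine CXCL3 rose by 2.19 at day 3, and IL23A fell by 1.79 at day 3. TNF was called higher at days 3 (1.24) and 5 (1.19) and CSF2 lower at day 7 (-2.02), but these differences are set by dim signals. TNF was well above background on 1 of 7 pre-irradiation and 5 of 6 day 5 arrays, and CSF2 on 3 of 7 pre-irradiation and 1 of 7 day 7 arrays.

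Of 19 genes known as targets of MYC, 7, 4 and 3 were called lower and 0, 1 and 1 higher. Of all named genes 7.55, 9.1 and 7.19% were called lower and 5.89, 6.23 and 2.69% higher. SLC16A1, a lactate transporter, was lower on all 3 days, with log2 changes of -3.70, -4.59 and -3.23. The erythroid markers were lower on the same arrays, with median changes of -3.57, -5.23 and -4.44, and their part in it was not tested. CDK4, a kinase of the G1 phase, was lower at days 5 and 7, with a log2 change of -2.36 at day 7. At day 3 the nucleolar protein gene GNL3 changed by -1.34 and HSPD1, a mitochondrial chaperone, by -1.24. FBL, a nucleolar methyltransferase, was called lower on all 3 days (-1.17, -0.98 and -0.99), and CCND2, a D-type cyclin, was called higher at days 5 (0.98) and 7 (1.11). The median change of the 19 genes was -0.56, -0.37 and -0.06. On the same arrays the median change of the T cell markers was -0.79, -0.40 and -0.02, and all 9 B cell markers were called lower on each day. The part of these cells in the changes of the list was not tested.

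Among 10 partners and antagonists of MYC, 1, 2 and 1 were called higher and 1, 1 and 3 lower, with median changes of 0.08, 0.26 and 0.31, beside 5.89, 6.23 and 2.69% of all named genes called higher and 7.55, 9.1 and 7.19% lower. MXI1, a MAX-binding antagonist of MYC that is also expressed in red cell precursors, was lower on the 3 days, with log2 changes of -1.82, -2.06 and -1.83. Its level was lower beside the erythroid markers, whose mean log2 level was 14.33 to 15.88 before irradiation and 11.23 to 12.89, 8.81 to 9.72 and 7.83 to 13.36 afterwards, and their part in it was not tested. MXD3, of the same family, rose by 0.98 and 1.23 at days 5 and 7, FBXW7, a ligase that marks MYC protein for degradation, rose by 0.78 and 0.71 at days 3 and 5, and MYCL fell by 1.79 at day 7.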

How the data were processed

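The genes and lists described here were chosen with earlier results of these data known. Per the labels, the authors isolated RNA from whole blood, depleted globin transcripts and hybridized Agilent rhesus arrays. Per the file headers, the authors' Feature Extraction software (version 12.0.2.2, while the labels name 10.7) deposited processed intensity, the spot mean less a fitted background surface, where a surrogate stands in for low signals. A series matrix of log2 values, deposited by the authors after normalization to the median array, was also at hand. Its 18497 matched rows include 10 of the 13 probes, and it served as an alternative.

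Here the log2 intensity of spots not marked as outliers was averaged per probe and shifted to the median array, pre-irradiation replicate 2 (shifts of -0.87 to 2.03). The tests, by limma 3.58.1 in R 4.3.3 (two-sided, each pair of groups in its own fit), took in the 27138 probes above background on 4 or more of the 24 arrays. The brightest probe stood for a gene. All probes of the 10 genes are named, and from each list, per day, the 3 called genes with the largest absolute change, and the 3 genes most like each member, except that a few genes chosen this way are not reported here. Names came from the scanner output (23054 probes) or from matching accessions to RefSeq gene tables (539 probes), and 20010 probes had none. The fit was tested on simulated data. Replicate numbers were taken to pair the samples, since a number keeps its sex on every day and each array's residuals from its group mean correlated over 0.1 with those of its own pre-irradiation array (r of 0.134 to 0.414, 0.171 to 0.454 and 0.132 to 0.439 for the 3 days). A fold for a gene dim in a group is the bright mean over the mean, per array, of the higher of the lowest signal well above background and the gene's own. Alternatives changed the normalization, background, filter, fit, blocks and animals. In R, statmod (1.5.0) and data.table (1.17.8) were used.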

Additional observations from a re-analysis of the deposited data

How the results depend on the processing

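Members called at day 3 were 1 of 8. The count was 2 with quantile normalization, with all groups in 1 fit and with the added normexp correction described last, and 0 with the replicate block, slide block, scan session block, within scan session 2 and with normexp on each spot's local background. Without 1 animal it ran from 0 to 3. Members called at day 5 were 2 of 8, 1 with the added correction and 0 with the slide block, scan session block, within scan session 2 and normexp. Without 1 animal the count ran from 0 to 2. No slide held both pre-irradiation and day 5 arrays. The slide block at day 5 therefore set arrays of 1 slide against those of another and gave no slide-adjusted change. At day 7 it was 0, and 1 (MYC) with the stricter filter, all groups in 1 fit and the replicate block. For day 7 against day 3 it was 0, and 1 with all groups in 1 fit. The replicate block changed no other call of the 8 genes. Over all probes it moved the count from 3651 to 751 at day 3.

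Of the log2 changes of single genes under an alternative, 25 lost a call (MYC at days 3 and 5, ZFP36 at day 5), 8 gained one (MYC at day 7, ZFP36 and JUNB at day 3), 21 uncalled ones turned their sign and 444 kept sign and call. At day 3, FOSB was -0.63 with the slide block and -0.89 with the session block and within session 2, JUN was -0.11 and then -0.0061 in both, and FOS ran from -0.021 to 0.668 without 1 animal. At day 5, FOSB was -0.89 and DUSP1 -0.0024 with the session block and within session 2, FOS ran from -0.044 to 0.317 without 1 animal, and with normexp DUSP1, FOS, IER2 and JUN were -0.15, -0.34, -0.47 and -0.23. At day 7, quantile normalization gave 0.056 for DUSP1, 0.33 for FOS and 0.44 for IER2, and the mean of a gene's probes gave 0.33 for FOSB and -0.048 for ZFP36. The cause was not tested, except that normexp rested on 10 arrays with 1 to 13 spots whose local background exceeded their signal by over 500 units. There the 5th percentile of tested probes rose to 8.45 to 10.29, against 6.06 to 6.71 on the other 14 arrays. An alternative chosen after seeing the data, normexp on the array's median background, called 2977 probes at day 3 where normexp called 136 and the main setting 3651. Dim signal left EGR1 without a value, and session and day cannot be told apart at days 3 and 5 beyond 1 array. At day 3 the slide block rested on that same pre-irradiation array, of animal 5, whose slide alone held both groups. Counts of 0 within session 2, under the session block and under the slide block at days 3 and 5 therefore say nothing about stability.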
